A study of Mus musculus with 6 samples.

Results

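Dbh, Htr3a, Greb1, Fst and Slc7a3 are 5 genes of transmitter synthesis, signalling and nutrient uptake that had fewer splice junction reads in one of the 2 sets of libraries of this series. They were picked for that difference, so their read totals are given below as a description and are not tested. All events that the deposited splicing table lists under these gene symbols were taken. This gave 14 events of 45595, in 5 genes of 9590 with a symbol. Of the 14 events, 11 were skipped exons, and 1 each was a retained intron, an alternative 3′ splice site and a pair of mutually exclusive exons. Htr3a held 6 of them and each of the other genes 2. All 14 had a mean of 20 or more reads per library, the minimum used for testing.

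The libraries hold total RNA of N2a cells (Neuro-2a), a line grown from a mouse neuroblastoma, a tumour of the sympathetic nerve lineage. Per the labels, 3 libraries came from hnRNP DL-/- cells and 3 from wild type cells. hnRNP DL is an RNA-binding protein encoded by Hnrnpdl, and the series asked how its loss changes alternative splicing. The kind of deletion, the number of clones and whether each library had its own culture are not in the labels, and p-values here reflect no more than the spread among 6 libraries. The table arranges its libraries as sample 1 and sample 2, with 3 values each, and nothing ties either name to a genotype. They are called set 1 and set 2, every difference is set 1 against set 2, and no genotype is attached to either.

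Dbh encodes dopamine beta-hydroxylase, which makes noradrenaline from dopamine inside secretory vesicles, the step that sets noradrenergic cells apart from dopaminergic ones. Htr3a encodes the subunit that every serotonin-gated cation channel of its class needs. Fst encodes follistatin, a secreted protein that binds activin and keeps it from its receptors. Greb1 is an early response gene and cofactor of the estrogen receptor, best studied in human breast cancer cells. Slc7a3 encodes a cationic amino acid transporter that carries arginine and lysine across the plasma membrane.

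Each gene was represented by its event of most reads, and its inclusion and skipping reads together were scaled to the library's sum over genes, as CPM, reads per 1000000. These sums ranged from 4065516 to 5040636 reads in set 1 and from 4051605 to 5468742 reads in set 2. Of the neuroblast and sympathetic markers listed for the line, 9 of 20 were measured, Dbh among them, and the summed level of the other 8 was 2075, 1570 and 1369 CPM in set 1 against 2198, 2314 and 2149 CPM in set 2. Among 26 listed markers of fibroblasts, glia, immune and endothelial cells, 5 had an event and none reached the minimum, with at most 15 reads in a library. Hnrnpdl itself had 399.6, 428.7 and 432.9 CPM in set 1 and 469.8, 502.4 and 502.0 CPM in set 2, with a limma adjusted p of 0.392. On the leading principal component over all genes, library 1 of set 1 lay at −5.83, away from the other libraries of set 1 at 18.35 and 22.01 and nearer to set 2, at −18.01 to −7.68. Results that rest on it are given with and without it.

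Dbh (ENSMUSG00000000889, chr2:27165233-27183200, plus strand, mm10) was covered thinly. Its event of most reads, at exon 3, had counts of 21, 6 and 5 in set 1 against 88, 61 and 56 in set 2. The 95% exact Poisson interval around 5 reads runs from 1.62 to 11.7 reads, and around 56 reads from 42.3 to 72.7 reads, for counting error only. Scaled to library size, the junction total was 4.17, 1.42 and 1.23 CPM in set 1 against 16.1, 14.3 and 13.8 CPM in set 2. The sets did not overlap, and library 1 of set 1 lay highest in its set. The mean was 2.27 ± 1.64 CPM in set 1 and 14.7 ± 1.20 CPM in set 2 (SD, n = 3 each), 6.48-fold lower in set 1. On the log2(CPM + 1) scale the ratio was −2.37 ± 0.34 (SE), and −2.76 without library 1 of set 1.

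Greb1 (ENSMUSG00000036523, chr12:16670615-16800886, minus strand) was as thin as Dbh in set 1. Counts at its 219-base exon were 9, 6 and 10 in set 1 against 60, 69 and 68 in set 2. The junction total was 1.79, 1.42 and 2.46 CPM in set 1 against 11.0, 16.2 and 16.8 CPM in set 2. No library of set 1 came near set 2, and here library 1 of set 1 lay between the others of its set. The mean was 1.89 ± 0.526 CPM in set 1 and 14.6 ± 3.19 CPM in set 2 (SD, n = 3 each), 7.74-fold lower in set 1. The log2 ratio was −2.43 ± 0.29 (SE), and −2.41 without library 1 of set 1. At the gene's other event, also thinly covered, counts were 6, 13 and 17 in set 1 against 46, 57 and 60 in set 2. The log2 ratio of the total was −1.84 there, and library 1 of set 1 lay lowest in its set. The size of the difference in Greb1 thus depended on the event taken.

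Fst (ENSMUSG00000021765, chr13:114452290-114458951, minus strand) had, at exon 4, counts of 73, 18 and 12 in set 1 against 131, 136 and 186 in set 2. That is a junction total of 14.5, 4.27 and 2.95 CPM in set 1 against 24.0, 31.8 and 45.9 CPM in set 2. Relative to its mean, Fst varied most of the 5 genes within set 1, where library 1 had more than the other libraries together and came closest to set 2. The mean was 7.24 ± 6.31 CPM in set 1 and 33.9 ± 11.1 CPM in set 2 (SD, n = 3 each), 4.69-fold lower in set 1. The log2 ratio was −2.30 ± 0.41 (SE), and −2.89 without library 1 of set 1.

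Htr3a (ENSMUSG00000032269, chr9:48899213-48911099, minus strand) had, at exon 2, counts of 96, 53 and 49 in set 1 against 243, 284 and 472 in set 2. The junction total was 19.0, 12.6 and 12.1 CPM in set 1 against 44.4, 66.5 and 116.5 CPM in set 2. The sets did not overlap, and the spread lay mostly in set 2, whose library 3 stood highest. The mean was 14.6 ± 3.89 CPM in set 1 and 75.8 ± 36.9 CPM in set 2 (SD, n = 3 each), 5.21-fold lower in set 1. The log2 ratio was −2.22 ± 0.29 (SE), and −2.42 without library 1 of set 1.

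Slc7a3 (ENSMUSG00000031297, chrX:101079210-101086020, minus strand) had the most reads and the smallest difference of the 5 genes. Its counts at a 158-base exon were 149, 65 and 104 in set 1 against 410, 208 and 318 in set 2. The junction total was 29.6, 15.4 and 25.6 CPM in set 1 against 75.0, 48.7 and 78.5 CPM in set 2. Library 2 lay lowest in both sets, and the highest library of set 1 was still below the lowest of set 2. The mean was 23.5 ± 7.29 CPM in set 1 and 67.4 ± 16.3 CPM in set 2 (SD, n = 3 each), 2.86-fold lower in set 1. The log2 ratio was −1.50 ± 0.24 (SE), and −1.68 without library 1 of set 1. At the gene's other event, an intron, the log2 ratio of the total was −1.21 and the totals of the sets overlapped.

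**Figure D1:**
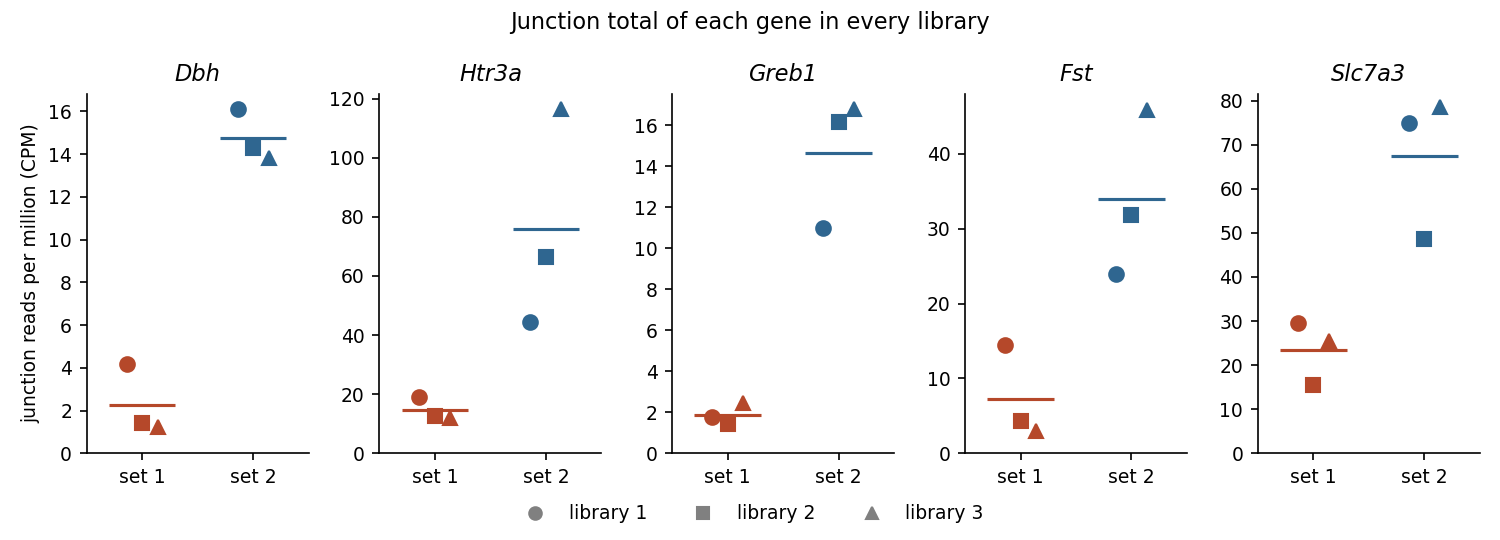
Junction total in CPM (vertical axes, linear, from 0) of Dbh, Htr3a, Greb1, Fst and Slc7a3 in the 3 libraries of set 1 and the 3 of set 2; symbols mark the library's place in the table and bars the mean of a set. In each gene the highest point of set 1 lies below the lowest of set 2, and the circle of library 1 is the highest of set 1 in 4 of 5 genes.

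In all 5 genes, every library of set 1 lay below every library of set 2, which held for 6.68% of the 8281 genes tested, while the reverse held for 7.4%. Nothing is read from this count, since the genes were chosen by it. By log2 ratio at the event of most reads, Greb1, Dbh, Fst, Htr3a and Slc7a3 ranked 3, 4, 6, 7 and 13 from the lowest of the 8281 genes. Over all genes tested, limma called 0.471% lower in set 1 at an adjusted p under 0.05, 39 genes. That number was 165 without library 1 of set 1, 6 without library 2 of set 1, 15 without library 3 of set 1, 7 without library 2 of set 2 and 14 without library 3 of set 2. Leaving out any 1 library kept the log2 ratio between −2.76 and −2.15 for Dbh, between −2.54 and −1.86 for Htr3a and between −2.61 and −2.31 for Greb1. It stayed between −2.89 and −1.90 for Fst and between −1.71 and −1.23 for Slc7a3. Over the 14 events the log2 ratio of the total ran from −2.69, at exon 6 of Dbh, to −1.21, at an intron of Slc7a3. In 13 of the 14 events, all but that intron of Slc7a3, every library of set 1 lay below every library of set 2. Nothing is read from this count either, since the genes were chosen by such totals and the events of a gene share reads. These totals follow expression and splicing of an event together, and in a bulk sample fewer cells that express a gene and less RNA per cell cannot be told apart.

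**Figure D2:**
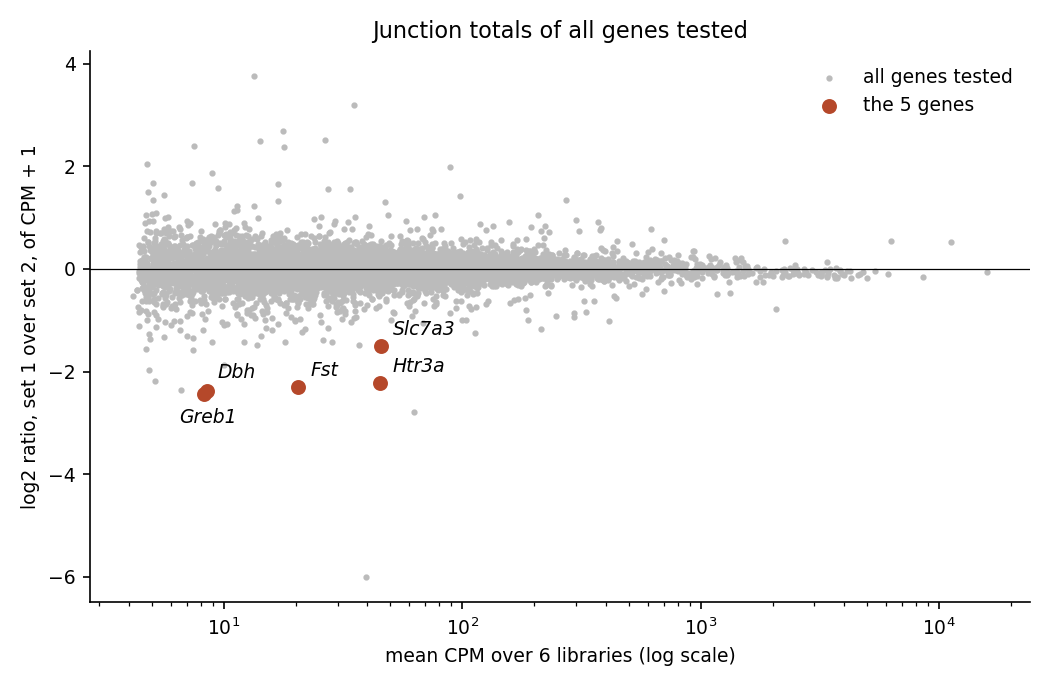
Log2 ratio of junction totals, set 1 over set 2, on the CPM + 1 scale (vertical axis), against mean CPM over the 6 libraries (horizontal log axis) for the 8281 genes tested, in grey, with the 5 genes in red. Slc7a3 lies at −1.50 and the other 4 genes between −2.43 and −2.22.

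The 5 genes did not share 1 pattern within the sets. After each set's mean was taken off, the deviations of Dbh and Fst over the 6 libraries had a Pearson correlation of 0.84 and those of Htr3a and Fst one of 0.76. Those of Greb1 and Fst had 0.08 and those of Dbh and Greb1 −0.26. These are descriptions over 6 libraries, in which library 1 of set 1 weighs heavily. The genes most like each of the 5 over the 6 libraries had Pearson correlations of 0.982 to 0.999 on the log2(CPM + 1) scale, and 7281 genes averaging at least 50 reads were searched. For Dbh they were Atg10, Zscan21 and Bscl2, for Htr3a Ssbp2, Ppm1m and Sipa1, for Greb1 Chd8, Rimbp2 and Prosc, and for Slc7a3 Slc25a14 and Ccdc34. For Fst they were Brd9, Tbca and Sdha. These 3 genes lie on chromosome 13 as Fst does, and so do Atg10 and Ssbp2, the genes most like Dbh and Htr3a. The set means were not taken off here, so these correlations largely follow the set difference that the 5 genes were picked for. The size of a difference does not enter, and Zscan21, Chd8 and Slc25a14 stood at log2 ratios of −0.30, −0.24 and −0.20. As the highest among 7281 genes over 6 libraries, the correlations are also close to 1 by selection.

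The inclusion level, the share of a gene's forms that include the element after both are scaled by their lengths, was not what the genes were chosen by, and it was tested. A moderated quasi-binomial test over 39409 events called 0 of them (0% of events tested), 0 of the 14 events among them, at an adjusted p under 0.05 with a change of 0.10 or more. With the dispersion moderated along the total count the test called 64 events. In simulated skipped exons of intermediate inclusion the reported form called 0 of 100 changes of 0.2, larger than any difference among the 14 events. Most of the 14 events lie nearer 0 or 1, so this simulation does not measure how often their differences would be called. In the reported form the unadjusted p lay under 0.05 for 1357 events (3.44%). By limma, fitted to logit levels, 0 events were called and 1298 of the 39409 had such an unadjusted p. Among these were 3 of the 14 events, in Greb1, Slc7a3 and Dbh. Over the 14 events the adjusted p of the quasi-binomial test ran from 0.735 to 0.971, and 1 event, an exon of Slc7a3, had an unadjusted p under 0.05. The authors' deposited table gave 2 of the 14 events an adjusted p under 0.05, the same exon of Slc7a3 and an exon of Greb1, against 1.13% of its 45595 events. In 3 of the 14 events, in Slc7a3, Greb1 and Dbh, the levels of the sets did not overlap, which held for 5.93% of the 39409 events. Exact permutation of 3 against 3 libraries cannot go below p = 0.1.

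**Figure D3:**
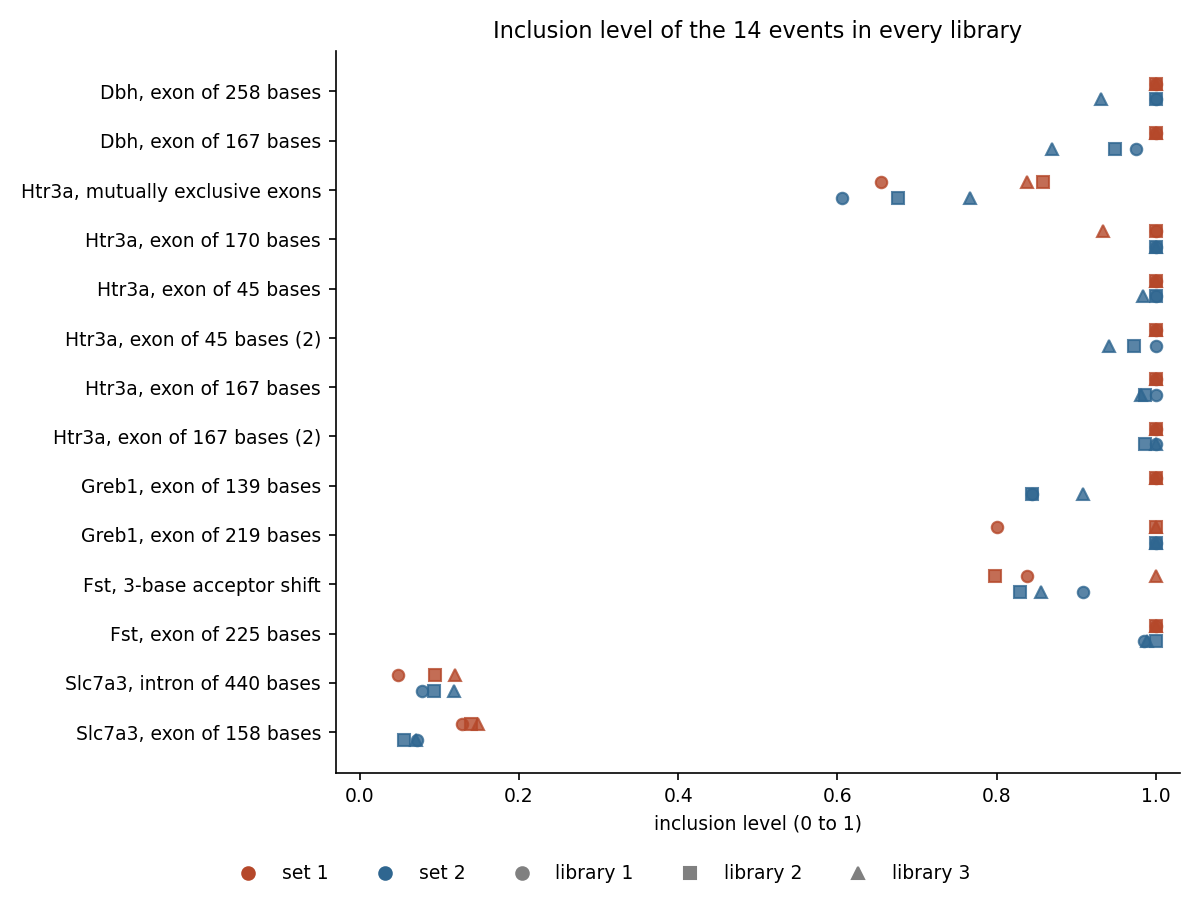
Inclusion level (horizontal axis, 0 to 1) of the 14 events in the 3 libraries of set 1 (red, upper row of each event) and the 3 of set 2 (blue, lower row); symbols mark the library's place in the table. Most exons lie at or near 1 in both sets, and the 158-base exon of Slc7a3 lies at 0.129 to 0.149 in set 1 and 0.056 to 0.072 in set 2.

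The 158-base exon of Slc7a3 (chrX:101084821-101084978, minus strand, mm10) is exon 2 of a GENCODE vM21 transcript with 13 exons, lies wholly in the 5′ UTR and ends 34 bases before the start codon in that transcript. The exon is in 1 of the gene's 3 annotated coding transcripts, holds no ATG and has a GC content of 58.2%. Reads joining the exon numbered 34, 16 and 27 in set 1 and 55, 22 and 42 in set 2. Reads skipping it numbered 115, 49 and 77 in set 1 and 355, 186 and 276 in set 2. The inclusion level was 0.129, 0.14 and 0.149 in set 1 against 0.072, 0.056 and 0.071 in set 2. Every library of set 1 lay above every library of set 2, with means of 0.139 ± 0.0102 and 0.0661 ± 0.00895 (SD, n = 3 libraries of set 1 and of set 2). The difference was 0.0733 ± 0.00784 (SE), and it stayed between 0.0681 and 0.0786 when any 1 library was left out. By the quasi-binomial test the unadjusted p was 0.00376 and the adjusted p 0.735. Limma on logit levels gave this exon an unadjusted p of 0.000598 and an adjusted p of 0.483. The authors' deposited table put its adjusted p at 0.00792. With the dispersion moderated along the total count, the quasi-binomial adjusted p was 0.0365, the only one of 11 alternatives under 0.05, and over the others it ran up to 0.843.

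The reads of both Slc7a3 forms were not lower in set 1 by the same factor. Reads skipping the exon came to 22.8, 11.6 and 18.9 CPM in set 1 against 64.9, 43.5 and 68.1 CPM in set 2, with no overlap and a ratio of the means of 0.302. Reads joining it came to 6.75, 3.80 and 6.64 CPM in set 1 against 10.1, 5.15 and 10.4 CPM in set 2. These overlapped, since library 2 of set 2 lay below libraries 1 and 3 of set 1, and the ratio of the means was 0.672. A 440-base intron of the gene (chrX:101080268-101080707) had levels of 0.048, 0.095 and 0.12 in set 1 and 0.078, 0.093 and 0.119 in set 2. The sets overlapped there, with a difference of −0.00871 ± 0.0242 (SE) and a quasi-binomial adjusted p of 0.735.

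**Figure D4:**
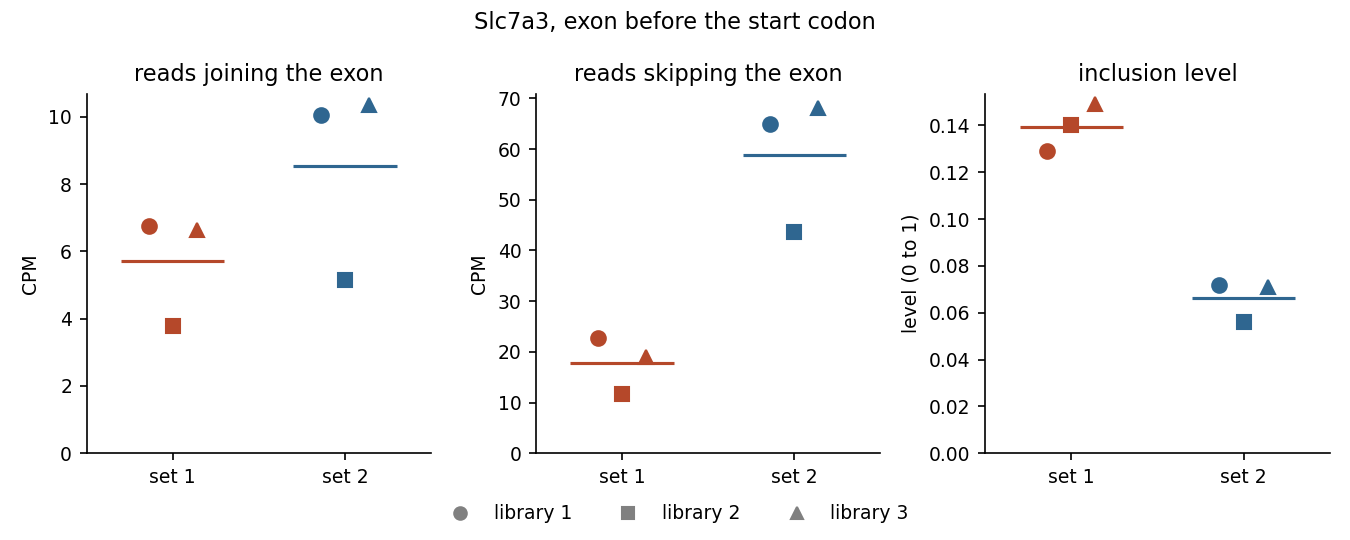
Reads joining and reads skipping the 158-base exon of Slc7a3 in CPM, and its inclusion level, in the 3 libraries of set 1 and the 3 of set 2 (linear axes from 0; bars are means; symbols mark the library's place in the table). Skipping reads and levels do not overlap between the sets, and joining reads do.

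In Greb1 the event that the authors' table called was exon 32 of 33 in a GENCODE vM21 transcript, a coding exon of 139 bases (chr12:16673746-16673884, minus strand, mm10). Its sequence is shown, exon in capitals between 20 bases of each neighbouring exon in lower case, because reads that skip it join the lower-case parts directly.
Greb1 exon 32: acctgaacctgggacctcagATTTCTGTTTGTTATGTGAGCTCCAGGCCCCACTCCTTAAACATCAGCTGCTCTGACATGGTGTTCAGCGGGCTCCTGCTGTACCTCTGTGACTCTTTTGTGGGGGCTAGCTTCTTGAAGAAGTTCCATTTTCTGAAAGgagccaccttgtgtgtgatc
The length is not a multiple of 3. In that transcript the stop codon follows 1859 codons without the exon, against 1954 with it. Reads including the exon numbered 6, 13 and 17 in set 1 and 42, 52 and 57 in set 2. Reads skipping it numbered 0, 0 and 0 in set 1 and 4, 5 and 3 in set 2. The inclusion level was thus 1.0 in each library of set 1, against 0.845, 0.844 and 0.908 in set 2, a difference of 0.134 ± 0.0212 (SE). The adjusted p in the authors' deposited table was 0.00984, and this event also had a change of 0.10 or more, as did 0.645% of events in that table. By the quasi-binomial test the unadjusted p was 0.108 and the adjusted p 0.735. Limma on logit levels gave an unadjusted p of 7.22e-05 and an adjusted p of 0.178. Over 10 alternatives the adjusted p ran from 0.178 to 0.843. The 0 of 36 reads of set 1 allow a skipping share of up to 8.33% of reads, for counting error only, and set 2 had 7.36% (12 of 163 reads).

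The other Greb1 event, a coding exon of 219 bases (chr12:16680200-16680418), had levels of 0.8, 1.0 and 1.0 in set 1 and 1.0 in each library of set 2, where the 0.8 rests on 1 skipping read of 9. It did not pass the quasi-binomial test (adjusted p = 0.735).

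Dbh has 12 exons in its annotated coding transcript, and the table lists exons 3 and 6 (chr2:27170312-27170569 and chr2:27174815-27174981, plus strand, mm10). Exon 6 is shown because the levels of the sets did not overlap there, with the exon in capitals between 20 bases of each neighbour.
Dbh exon 6: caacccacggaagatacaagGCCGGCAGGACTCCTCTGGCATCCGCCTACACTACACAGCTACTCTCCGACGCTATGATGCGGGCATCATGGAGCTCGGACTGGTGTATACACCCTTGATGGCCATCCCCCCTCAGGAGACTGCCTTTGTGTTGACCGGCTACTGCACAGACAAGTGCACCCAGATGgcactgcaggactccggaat
Its 167 bases are not a multiple of 3, and without it the reading frame of the transcript reaches a stop after 472 codons, against 622 with it. No read skipped it in set 1, where it had 14, 4 and 5 reads, and 1, 2 and 4 reads skipped it in set 2, beside 79, 74 and 53 that included it. The level was 1.0 in each library of set 1 and 0.975, 0.949 and 0.869 in set 2, a difference of 0.0690 ± 0.0320 (SE), and of 0.038 without library 3 of set 2. The quasi-binomial adjusted p was 0.735, and the authors' deposited table gave 0.461. Limma on logit levels gave an unadjusted p of 0.0193 and an adjusted p of 0.791. The 0 of 23 reads of set 1 allow up to 3 of 23 reads, above the skipping share of 3.29% in set 2. Exon 3, of 258 bases, had no skipping read in set 1 and 2 in set 2, and a quasi-binomial adjusted p of 0.837.

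Htr3a has 9 exons in the annotated transcript used here, and its 6 events concern exons 2, 3 and 5 (167, 45 and 170 bases). Exon 3 (chr9:48907354-48907398, minus strand, mm10) is the shortest and the only one of them whose length is a multiple of 3, and it is shown in capitals between 20 bases of each neighbour.
Htr3a exon 3: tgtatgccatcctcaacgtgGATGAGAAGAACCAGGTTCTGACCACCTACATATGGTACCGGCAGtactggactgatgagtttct
Without it the reading frame of the transcript keeps its stop codon, after 474 codons against 489 with it. The 5 skipped-exon events of Htr3a had mean levels of 0.978 to 1.0 in set 1 and 0.971 to 1.0 in set 2. One event of exon 2 had no skipping read among 93 in set 1 and 3 among 462 in set 2. The event that treats exons 2 and 3 as mutually exclusive (exon 2 at chr9:48908595-48908761), whose level counts exon 2, stood at 0.655, 0.858 and 0.838 in set 1 and 0.606, 0.676 and 0.766 in set 2. The sets overlapped, with a difference of 0.101 ± 0.0795 (SE), a quasi-binomial adjusted p of 0.737 and an adjusted p of 1.0 in the authors' deposited table. The difference was 0.165 without library 1 of set 1, 0.0638 without library 2 of set 1 and 0.0628 without library 1 of set 2. Its counts for each exon equal, in all 6 libraries, the inclusion counts of 2 skipped-exon events of the gene, so it is not a separate measurement. Reads joining exon 2 past exon 3 numbered 0 in set 1 and 4 in set 2. Reads joining exon 3 past exon 2 numbered 0 in set 1 and 2 in set 2. The level is therefore not the share of forms that use 1 of these exons without the other.

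Fst had an alternative 3′ splice site at the start of its exon 5, where use of the upstream site adds 3 bases (long form chr13:114454280-114454510, minus strand, mm10). The 3 optional bases are in capitals, after the last 20 bases of exon 4 and before the first bases that both forms share.
Fst exon 5 start: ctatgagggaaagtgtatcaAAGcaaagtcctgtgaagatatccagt
Reads on the longer form numbered 21, 4 and 4 in set 1 and 60, 49 and 78 in set 2, and reads on the shorter form 4, 1 and 0 in set 1 and 6, 10 and 13 in set 2. The level of the longer form was 0.838, 0.798 and 1.0 in set 1 and 0.908, 0.829 and 0.856 in set 2. The sets overlapped, and the difference was 0.0147 ± 0.0660 (SE), with a quasi-binomial adjusted p of 0.971. The 225-base exon 4 (chr13:114455121-114455345) had 0 skipping reads of 103 in set 1 and 2 of 453 in set 2.

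Across these exons, 8 of the 14 events had skipping reads in set 2 and none in set 1. The genes were picked for fewer reads in set 1, which makes a count of 0 there easier to reach. Overlapping events of Htr3a share skipping reads, and the share over all events was not counted, so nothing is read from this number. In all 8 the limit that a count of 0 allows in set 1, from 1.52% to 15.0% of reads, lay above the skipping share of set 2. Among the 8, the authors' deposited table called the 139-base exon of Greb1 and no other.

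The neighbours of Fst on its chromosome were also lower in set 1. All 10 tested genes that start within 2 Mb of Fst had log2 ratios below 0, from −0.87 to −0.27 with a median of −0.46, and in 3 of them every library of set 1 lay below set 2, as in 25.3% of the other tested genes of chromosome 13 and 6.68% of all genes. The nearest were Ndufs4, a subunit gene of mitochondrial complex I, at −0.87 ± 0.23 (SE), and Mocs2, a gene of molybdenum cofactor synthesis, at −0.62 ± 0.16 (SE). Ndufs4 had 341.2, 158.8 and 150.5 CPM in set 1 against 386.9, 373.0 and 346.5 CPM in set 2, so library 1 of set 1 came closest to set 2 there, as it did in Fst. In a wider window chosen after the values were seen, 65 of 73 genes within 20 Mb of Fst had a ratio below 0, with a median of −0.49. Farther than 45 Mb from Fst, 73 of 168 genes of chromosome 13 had a ratio below 0, with a median of 0.06, and over all genes 3954 of 8281 did. Fst itself, at −2.30, lay below each of its 10 neighbours, and the part of the chromosome region in its value was not tested.

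**Figure D5:**
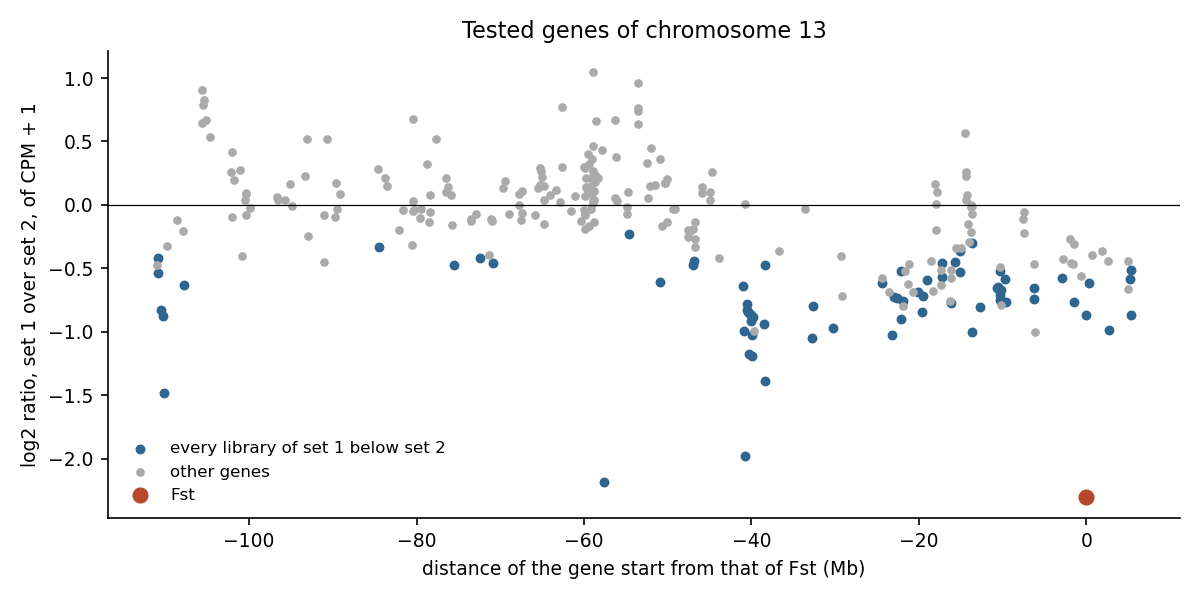
Log2 ratio of junction totals, set 1 over set 2, on the CPM + 1 scale (vertical axis), of the tested genes of chromosome 13 against the distance of their start from that of Fst in Mb (horizontal axis). Fst, in red, lies at −2.30, and the 10 genes within 2 Mb lie between −0.87 and −0.27; blue points are genes with every library of set 1 below every library of set 2.

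The other genes had neighbours with medians near 0. Within 2 Mb the median log2 ratio was 0.04 over 52 genes for Dbh, 0.02 over 15 genes for Htr3a, 0.00 over 7 genes for Greb1 and −0.01 over 14 genes for Slc7a3. Near Slc7a3, where ratios ran from −0.67 to 0.25, every library of set 1 lay below set 2 in 3 of the 14 genes. That held for 7.36% of the other tested genes of chromosome X, for 1 gene near Dbh and for 0 near Htr3a and Greb1. The reverse held for 3 genes near Dbh, 2 near Htr3a, 1 near Greb1 and 0 near Slc7a3. The gene before Dbh, Adamtsl2, which encodes a secreted protein of the matrix and starts 85.9 kb from it, stood at −1.86 ± 0.30 (SE). It had 5.55, 3.09 and 2.71 CPM in set 1 against 11.9, 21.1 and 15.8 CPM in set 2. Sardh, the nearest gene after Dbh, stood at −0.12 ± 0.18 (SE).

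The genes around each of the 5 in its pathway were counted from lists without the 5 genes, by the limma test over all genes. Over all 8281 genes, 49 were called higher (0.592%) and 39 lower, 782 had an unadjusted p under 0.05, limma voom called 81, and the median log2 ratio was 0.01. Of 41 noradrenergic and catecholamine genes 17 were measured, 2 were called lower and 0 higher, and their median log2 ratio was −0.12. The 2 were Chgb, which encodes the vesicle protein chromogranin B, and Dlk1, a relative of the Notch ligands that was listed with its change already known. The call of Dlk1 was thus fixed in advance and nothing is read from it, and without it Chgb was the only gene of the list called. Chgb had 375.7, 247.3 and 209.8 CPM in set 1 against 626.7, 527.2 and 489.9 CPM in set 2, a log2 ratio of −1.01 ± 0.17 (SE, adjusted p = 0.0132). It lost the call without library 2 of set 1 (adjusted p = 0.0787) or library 2 of set 2 (adjusted p = 0.0797). Dlk1 had counts of 1, 1 and 0 in set 1 against 261, 542 and 254 in set 2. Gata2, a transcription factor of the sympathetic lineage, stood at −0.48 ± 0.11 (SE, adjusted p = 0.0686) and Ret, a receptor of the GDNF family ligands, at −0.33 ± 0.10 (SE, adjusted p = 0.174), and neither passed. Genes of the same pathway near no difference were Slc18a2, the vesicular monoamine transporter, at −0.15, Qdpr at −0.05 and Chga at −0.01. The summed neuroblast markers given above lay below set 2 in every library of set 1, and their part in the values of Dbh was not tested. Most of that sum came from Prph, an intermediate filament gene of peripheral neurons, with 1176, 970 and 810 CPM in set 1 against 1275, 1430 and 1386 CPM in set 2. Gap43, a gene of growing axons, had 409.5, 142.4 and 111.9 CPM in set 1 against 416.7, 404.1 and 278.7 CPM in set 2. Limma called neither with all libraries, and both without library 1 of set 1. Of the 9 measured markers, Dbh among them, 7 had a log2 ratio below 0, with a median of −0.32. Over all 8281 genes 3954 had a ratio below 0. Mapt, Ncam1 and Elavl3, also among the markers, stood at −0.38, −0.32 and −0.16, and Map2, Elavl4 and Chga at 0.28, 0.02 and −0.01.

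Few relatives of the serotonin receptor were measured, 4 of 35, and limma called 0 of them, with 1 at an unadjusted p under 0.05 and 0 called by limma voom. That 1 was Chrna7, a nicotinic acetylcholine receptor subunit of the same channel family, with 16.3, 15.9 and 15.3 CPM in set 1 against 23.8, 28.3 and 23.7 CPM in set 2. Its log2 ratio was −0.64 ± 0.18 (SE, adjusted p = 0.135). Ric3 and Tph1 stood at −0.26 and −0.21.

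Of 53 activin, BMP and TGF-beta genes 25 were measured and limma called 0, with 4 at an unadjusted p under 0.05, and 1, Tgfb3, called by limma voom. The median log2 ratio was 0.00. The ligand gene Tgfb3 had 6.94, 7.83 and 8.12 CPM in set 1 against 2.01, 1.87 and 3.46 CPM in set 2, a log2 ratio of 1.35 ± 0.30 (SE, adjusted p = 0.0587). It was called in 4 alternatives: with limma voom, with a mean count of 5 or more, with the mean over all events of a gene and without library 1 of set 1. Ltbp3, which encodes a binding protein of latent TGF-beta, stood at 0.54, the coreceptor gene Eng at 0.53 and the BMP target Id1 at −0.48. The activin receptor genes Acvr2a, Acvr2b and Acvr1b stood at 0.00, −0.36 and 0.10, and none passed.

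Of 34 estrogen receptor and coregulator genes 23 were measured, 1 was called higher and 0 lower, and the median log2 ratio was 0.03. Igfbp4, which encodes a binding protein of insulin-like growth factors, had 320.6, 393.6 and 476.9 CPM in set 1 against 252.2, 179.8 and 178.9 CPM in set 2. Its log2 ratio was 0.96 ± 0.16 (SE, adjusted p = 0.00987), the opposite direction to Greb1. It lost the call without library 2 of set 1 (adjusted p = 0.0621), library 2 of set 2 (adjusted p = 0.0833) or library 3 of set 2 (adjusted p = 0.0531). Ddx17, Ccnd1 and Pelp1 stood at −0.38, −0.19 and 0.19, and Greb1l, the paralogue of Greb1, at −0.22, and none of these passed.

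Of 48 genes of amino acid transport and arginine use 22 were measured and limma called 0, with 4 at an unadjusted p under 0.05 and 0 called by limma voom. The median log2 ratio was 0.05. Odc1, the enzyme that starts polyamine synthesis, and Azin1, its antizyme inhibitor, stood at 0.27 ± 0.09 and 0.33 ± 0.11 (SE; adjusted p = 0.26 and 0.262), Asl, an enzyme of arginine synthesis, at −0.35 ± 0.12 (adjusted p = 0.28) and Gamt at 0.55 ± 0.23 (adjusted p = 0.451). Among the relatives of Slc7a3, the arginine transporter Slc7a1 stood at 0.01, Slc7a5 at 0.18, Slc7a6 at −0.10 and Slc7a11 at 0.28, and none passed.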

How the data were processed

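Total RNA of 6 N2a libraries was prepared with Trizol and the NEBNext Ultra kit, per the labels' protocols. Build mm10 and the tools HISAT2 2.1.0, Bowtie2 2.2.3 and HTSeq 0.6.0 are named, without a role, per the submitters' processing notes. The deposited table follows the rMATS layout for junction counts, per the file headers: read counts of both forms, form lengths, inclusion levels as a fraction and the authors' p-values. The caller's version, its annotation and any use of strand were not given in the sources used here. Genes overlap Htr3a, Greb1 and Fst on the other strand, and 1 more overlaps Greb1 on its own strand, in GENCODE vM21 (GRCm38, the assembly of mm10), the source of annotation and sequences.

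Junction totals, chosen per gene as the event with the most reads (mean 20 or more), were tested as log2(CPM + 1) with limma 3.58.1 in R 4.3.3 with a mean-variance trend, 3 against 3 libraries. The edgeR test of the original plan was not used and DESeq2 was not run. Inclusion was tested on events with a mean of 20 or more reads and a read in every library. The quasi-binomial test compares sets by binomial deviance. Its dispersion, at least 1, was moderated along the rarer form's read count (events with at least 5 of those). That form was taken over from earlier work on these data, which settled on it knowing how many events other forms called. Adjustment was Benjamini-Hochberg over all genes or events. On simulated totals, 89 of 100 genes changed by 2-fold were called and 12 of 8081 unchanged ones. On simulated skipped exons of intermediate inclusion, with a fixed spread among libraries, 0 of 100 changes of 0.2 and 49 of 100 of 0.4 were called.

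The 5 genes and the gene lists were chosen with earlier results of these data known. Text names the 5 genes, their events, list genes called or of smallest p (up to 4 per list), close relatives picked after values were seen, up to 3 genes most correlated with each and the nearest neighbours. Some genes that this would name are not reported here. Intervals and limits from counts of 0 (3 reads) cover counting error only.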

Additional observations from a re-analysis of the deposited data

How the results depend on the processing

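The log2 ratios of the 5 genes stayed below 0 in all 62 alternative values, and 59 of them moved by less than the spread within sets. The exceptions were Dbh at −1.46 and Greb1 at −1.50 with log2(CPM + 5), and Greb1 at −2.86 with limma voom. Leaving out 1 library gave 25 to 287 genes called in junction total, against 88 with all libraries (287 without library 1 of set 1, 25, 41, 32 and 43 without libraries 2 and 3 of set 1 and libraries 2 and 3 of set 2). Inclusion calls over all events numbered 0 in the reported form, 64 with the dispersion moderated along the total count, 11 with it estimated from events where the rarer form had at least 1 read (added with the data in view), and 0 to 5 with 1 library left out (5 without library 1 and 2 without library 3 of set 1). Differences in inclusion level changed sign in 4 of 148 values: the Slc7a3 intron stood at 0.011 without library 1 of set 1 and at 0.0023 without library 3 of set 2 (range −0.025 to 0.011), and the Fst splice site at −0.046 without library 3 of set 1 and −0.0031 without library 2 of set 2 (range −0.046 to 0.0551). No paired analysis was possible because the columns of the table carry no replicate number. The edgeR and DESeq2 alternatives were not run. Depth limits Dbh and Greb1 most, with 32 and 25 reads over the 3 libraries of set 1.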
